A study of Mus musculus with 12 samples.

Results

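The 10 genes described here encode the TAK1 complex (Map3k7, Tab1, Tab2), the IkB kinase complex (Ikbkb, Ikbkg), MAP kinase kinases (Map2k3, Map2k4, Map2k6), the kinase TPL2 (Map3k8) and the adaptor Ecsit. All probe sets that carry 1 of these symbols and no other were taken, 28 out of 45037 that are not controls. No signal entered that choice of probe sets, while the genes themselves were picked with earlier results of these data known. Of the 28, 23 probe sets of 9 genes reached 25.5, the median over all signals, on 2 or more of the 12 arrays and were tested among 27086 probe sets. The other 5 lay under that filter: both probe sets of Tab1, 2 of Ikbkb (1432275_at and 1454184_a_at) and 1 of Ikbkg (1450161_at).

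Mouse embryonic fibroblasts (MEFs, connective tissue cells grown from embryos) carried either a form of IRAK4 without kinase activity (IRAK4-KD) or the normal protein (WT). Cells of each genotype were kept for 4 h with no stimulus, or received 1 ng/ml of mouse interleukin-1 beta (IL-1b) for 1 h or 4 h, and each of the 6 groups had 2 arrays. The same unstimulated cells served as the baseline of both times. The replicates are called biological without naming embryos or cultures, so p-values measure the spread between these arrays, and no label gives the strain, the passage or how the IRAK4 allele was made. The label of WT unstimulated replicate 1 does not state a genotype, and that array was placed by the design, which gives 6 arrays to each genotype.

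As background, IL-1 binds a receptor that gathers the adaptor MyD88, the kinases IRAK4 and IRAK1 and the ubiquitin ligase TRAF6. Ubiquitin chains made by TRAF6 recruit the kinase TAK1 (Map3k7) with its partners TAB1 and TAB2, and TAK1 then activates the IkB kinase complex, which holds IKKbeta (Ikbkb) and the scaffold NEMO (Ikbkg), and the MAP kinase kinases MKK3, MKK4 and MKK6 (Map2k3, Map2k4, Map2k6) that act on p38 and JNK. TPL2 (Map3k8) is released when IKKbeta phosphorylates the p105 protein and drives the ERK branch, and ECSIT is a TRAF6 adaptor that also takes part in assembly of mitochondrial complex I. Most of this cascade is regulated by phosphorylation and ubiquitin, which an array of transcripts does not measure. No check of the genotype was made, since a transcript level does not show kinase activity and Irak4 was not analysed here.

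Signals are MAS5 signals on a linear scale, and the 2% trimmed mean was 150 on each array. Differences are on the log2(signal + 8) scale, which understates changes at low signal, and are given with SE from limma over all 12 arrays. A probe set is called where limma's p, adjusted over all 27086 by the Benjamini-Hochberg method, was under 0.05. Replicate arrays correlated at 0.973 to 0.979 over the tested probe sets, and the median SD between replicates was largest in unstimulated WT cells (0.174 on the log2 scale, against 0.128 to 0.150 elsewhere). All 8 fibroblast markers reached the filter on all arrays, with summed signals of 25217.4 to 26802.2 on IRAK4-KD and 23526.8 to 28481.8 on WT arrays. Among them, Pdgfra had group means of 131.9 to 172.8 in IRAK4-KD cells and 583.5 to 774.0 in WT cells, and Thy1 had 367.1 to 512.2 in IRAK4-KD cells and 537.8 to 626.7 in WT cells. The summed signal of 7 macrophage markers was 397.4 to 492.3 on IRAK4-KD arrays and 163.6 to 225 on WT arrays, and that of 4 neural markers was 332 to 382.8 and 173.4 to 286.3. Lyz2 was the largest part of the macrophage sum, with group means of 245 to 316 in IRAK4-KD and 98.1 to 124 in WT cells. Of the neural markers, Sox2 and Nes had higher group means in IRAK4-KD cells. Tubb3 means overlapped, and Gfap had 10.9 to 17.55 in IRAK4-KD and 17.45 to 26.6 in WT cells. The actin 3' to 5' ratio, a sign of RNA quality, averaged 2.85 ± 0.0178 in unstimulated IRAK4-KD cells and 2.36 to 2.49 elsewhere (SD, n = 2). The part of these markers and of this ratio in the IRAK4-KD against WT differences given here was not tested. In whole cultures, fewer cells of a type and less RNA per cell cannot be told apart.

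Among these genes Map3k8 was the one whose transcript rose after IL-1b in WT cells, and its change at 1 h was smaller in IRAK4-KD cells. Of 253 probe set and comparison pairs, 17 were called, from 10 probe sets of 6 genes. After 1 h in WT cells 1 of 23 rose (Map3k8) and 1 fell (Map2k4), and 6.65% of all tested probe sets were called. After 4 h in WT cells 1 rose (Map3k8) and 2 fell (Ecsit and 1 probe set of Ikbkg), where 7.52% of all were called. Between 1 h and 4 h in WT cells 0 rose and 3 fell, all of Ikbkg, where 14.7% of all were called.

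In IRAK4-KD cells limma called 0 of the 23 at 1 h, at 4 h and between these times, where 2.35%, 0.406% and 2.7% of all tested probe sets were called. With an unadjusted limma p under 0.05, the counts were 3, 3 and 7 of the 23, beside 6, 8 and 9 in the same comparisons of WT cells. The share of all tested probe sets at that unadjusted threshold is not given here. No result is therefore drawn from such counts, here or below. Between IRAK4-KD and WT cells 2 were higher and 0 lower without stimulation (10.8% of all were called), 1 was higher and 2 lower at 1 h (10.5%), and 1 was higher and 2 lower at 4 h (16.7%). In the difference between the genotypes' responses, 1 was called at 1 h, Map3k8 (0.366% of all), and 0 at 4 h (1.73% of all, with 7 of the 23 at an unadjusted p under 0.05). The median log2 difference of the 23 lay between -0.06 and 0.09 over the 11 comparisons, and that of all tested probe sets between -0.08 and 0.09. The members' calls thus made up 0% to 13% of the 23 in any comparison, above the share over all tested probe sets in 4 comparisons and below it in 7.

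**Figure D1:**
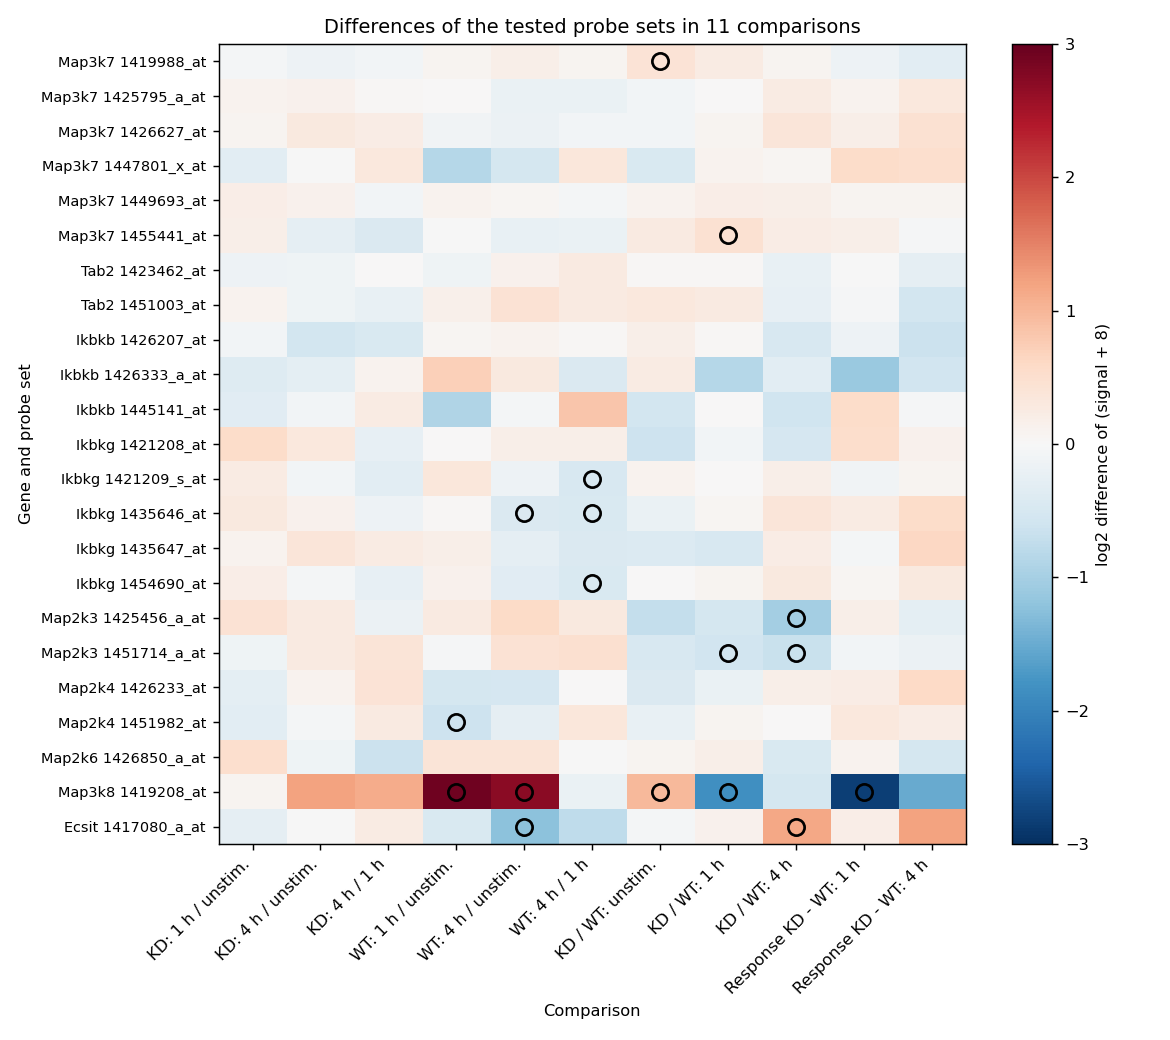
Log2 difference of each of the 23 tested probe sets (down the page, grouped by gene) in each of the 11 comparisons (across), with blue for lower and red for higher in the group named first, and a circle where limma's adjusted p was under 0.05. The 17 circles are spread over 6 genes, and the probe set of Map3k8 holds the largest differences, 2.92 in WT cells at 1 h and -2.83 in the response difference at 1 h.

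Map3k8 (probe set 1419208_at) encodes TPL2, the kinase that links the IkB kinase complex to MEK and ERK. Its signal in IRAK4-KD cells was 17.7 and 21.8 without stimulation, 26.1 and 17.4 at 1 h, and 58.6 and 53.7 at 4 h. In WT cells it was 9.2 and 3.4 without stimulation, 75.7 and 126.7 at 1 h, and 84.6 and 83.3 at 4 h. All 4 stimulated WT arrays lay above every other array, the IRAK4-KD arrays at 4 h came next, and the 4 unstimulated arrays and 1 of the IRAK4-KD arrays at 1 h were under the filter. Map3k8 therefore passed the filter through its stimulated arrays alone.

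**Figure D2:**
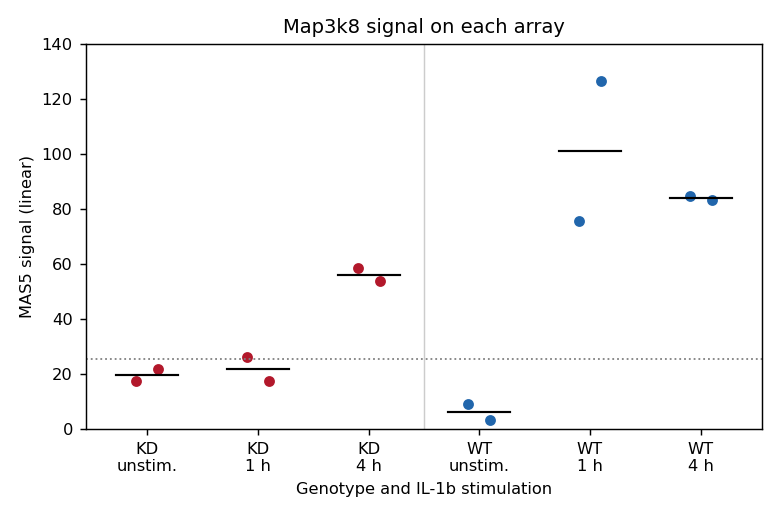
MAS5 signal (linear axis) of the Map3k8 probe set on each of the 12 arrays, with IRAK4-KD cells on the left and WT cells on the right, each unstimulated, at 1 h and at 4 h; bars are group means and the dotted line is the filter at 25.5. The WT arrays reached 75.7 and 126.7 at 1 h, where the IRAK4-KD arrays had 26.1 and 17.4.

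In WT cells Map3k8 rose by 2.92 ± 0.31 at 1 h (limma adjusted p = 1.00e-05) and by 2.72 ± 0.31 at 4 h (limma adjusted p = 1.50e-05), on the log2 scale. Both calls held in all 22 alternatives, and because the baseline signals were low the size at 1 h depended on the pseudocount, from 1.78 with 32 to 3.88 with 1, as did that at 4 h, from 1.60 to 3.66. The difference between 4 h and 1 h was -0.21 ± 0.31 (limma adjusted p = 0.726), and the arrays of the 2 times overlapped. In IRAK4-KD cells the difference was 0.09 ± 0.31 at 1 h (limma adjusted p = 0.934) and 1.21 ± 0.31 at 4 h (limma adjusted p = 0.113). At 4 h both IRAK4-KD arrays lay above both unstimulated ones, with an unadjusted limma p of 0.00106. That difference was not called in any of the 10 alternatives other than leaving out 1 array (limma adjusted p up to 0.276). It ran from 1.11 to 1.32 over the 12 fits without 1 array, and not all of these fits left it uncalled. Between 4 h and 1 h in IRAK4-KD cells the difference was 1.12 ± 0.31 (limma adjusted p = 0.0621). Both arrays at 4 h lay above both at 1 h. Fitting only the groups compared gave a limma adjusted p of 0.04. The highest was 0.143 among the 10 alternatives other than leaving out 1 array. This difference ran from 0.91 to 1.34 over the 12 fits without 1 array.

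The response of Map3k8 at 1 h was smaller in IRAK4-KD than in WT cells, with a log2 difference of -2.83 ± 0.44 (limma adjusted p = 0.00346). Its adjusted p ranged from 0.0016 to 0.0529 over 22 alternatives, and only leaving out WT 1 h replicate 2 ended the call, with a difference of -2.49. The size depended on the pseudocount, from -1.72 with 32 to -3.77 with 1, and the baseline signals were under the filter. At 4 h the response difference was -1.50 ± 0.44 (limma adjusted p = 0.101), from -0.83 to -2.20 with these pseudocounts. Its limma adjusted p was up to 0.211 in the 10 alternatives other than leaving out 1 array. Over the 12 fits without 1 array it ran from -1.80 to -1.21, and not all of these fits left it uncalled. The -1.80 came without WT unstimulated replicate 1. Set side by side at 1 h, Map3k8 was lower in IRAK4-KD than in WT cells by a log2 difference of -1.85 ± 0.31 (limma adjusted p = 0.000483), a call kept in all 22 alternatives. At 4 h the difference was -0.52 ± 0.31 (limma adjusted p = 0.298), with both IRAK4-KD arrays below both WT arrays.

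Without stimulation Map3k8 was 0.98 ± 0.31 higher in IRAK4-KD cells (limma adjusted p = 0.0495), from signals of 17.7 and 21.8 against 9.2 and 3.4, all under the filter. That call was lost in 10 of the 12 fits that left out 1 array, with adjusted p from 0.0516 to 0.282, and in 5 other alternatives. Its size was 0.44 with a pseudocount of 32 and 1.62 with 1. Beside it, the macrophage markers had summed signals of 445.1 to 475.3 on unstimulated IRAK4-KD arrays and 163.6 to 181.7 on unstimulated WT arrays. Of the 7 markers, Lyz2 reached the filter on all arrays, with mean signals of 282.6 and 98.1 in unstimulated IRAK4-KD and WT cells. In the same groups Ptprc had 41.9 and 5.9, Adgre1 29.1 and 9.7, Cd14 26.1 and 5.7, Csf1r 40.85 and 29.65, and Cd68 22.85 and 18.55. Itgam stayed between 0.4 and 22.4. At 4 h the means of Cd14 (16.7 and 19.25) and Itgam (3.5 and 8.55) were lower in IRAK4-KD than in WT cells. At 1 h the marker sum was 479.7 to 492.3 in IRAK4-KD cells and 196.7 to 213.6 in WT cells.

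The gene representatives whose log2 signal followed Map3k8 most closely over the 12 arrays, among 12456 genes, were Nfkbia (Pearson r = 0.94), Nfkbiz (r = 0.93), Cxcl2 (r = 0.90), Usp36 (r = 0.90) and Cxcl1 (r = 0.90). Nfkbia and Nfkbiz encode members of the IkB protein family, Usp36 encodes a nucleolar deubiquitinase, and Cxcl1 and Cxcl2 encode neutrophil attractants. The 12 arrays come from 6 groups and share the IL-1b response, so r is given as a description. Mean Nfkbia signals were 1214, 2139 and 3754 at baseline, 1 h and 4 h in IRAK4-KD cells, and 1315, 6482 and 5750 in WT cells. For Nfkbiz they were 217.6, 432.6 and 1550 in IRAK4-KD cells, and 273.6, 4230 and 3109 in WT cells. For Cxcl2 they were 0.9, 13.2 and 136.1 in IRAK4-KD cells, and 3.7, 3927 and 4685 in WT cells. For Usp36 the means were 75.6, 65.8 and 94.1 in IRAK4-KD cells, and 59.2, 109.1 and 90.2 in WT cells. For Cxcl1 they were 17.3, 55.3 and 787.9 in IRAK4-KD cells, and 54.8, 6086 and 6149 in WT cells. At 1 h the means of all 5 were lower in IRAK4-KD than in WT cells, and at 4 h those of all but Usp36. The 5 were picked by their likeness to Map3k8 on these arrays, so a shared pattern follows from the choice.

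Promoters are shown for 2 of these genes and for Map3k7. Among the 7 members whose promoter was searched, Map3k7 was the one with a match to the motif marked below. Promoters of genes with large changes after IL-1b can thus be read beside that of a member with no called change against baseline. Sequences are RefSeq's on GRCm38.p6, 250 bases before the start site on the gene's strand, and capitals mark matches to the kB consensus, the sequence family bound by NF-kB.
Nfkbia, chr12:55492648-55492897, minus strand: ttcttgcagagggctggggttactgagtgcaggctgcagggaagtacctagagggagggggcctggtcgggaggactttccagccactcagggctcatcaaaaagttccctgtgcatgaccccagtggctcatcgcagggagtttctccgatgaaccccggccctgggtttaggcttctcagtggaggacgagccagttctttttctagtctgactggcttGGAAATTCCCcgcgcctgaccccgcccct
Cxcl2, chr5:90903649-90903898, plus strand: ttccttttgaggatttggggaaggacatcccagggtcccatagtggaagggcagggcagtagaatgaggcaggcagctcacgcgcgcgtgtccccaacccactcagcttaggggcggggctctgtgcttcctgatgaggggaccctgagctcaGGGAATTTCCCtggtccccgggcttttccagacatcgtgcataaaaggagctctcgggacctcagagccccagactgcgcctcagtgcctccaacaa
Map3k7, chr4:31963857-31964106, plus strand: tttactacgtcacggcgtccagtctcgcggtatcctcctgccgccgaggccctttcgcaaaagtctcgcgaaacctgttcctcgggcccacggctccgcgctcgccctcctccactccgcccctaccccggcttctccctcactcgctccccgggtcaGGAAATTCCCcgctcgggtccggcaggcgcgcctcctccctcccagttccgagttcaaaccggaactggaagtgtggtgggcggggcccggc
The Nfkbia match spans bases -29 to -20 from the start site and the Map3k7 match -92 to -83, with the same letters. In Cxcl2, matches on both strands overlap at -97 to -88 and -96 to -87. RefSeq windows of 300 bases (250 before and 50 after the start) were found for 7 of the 10 members, 14 windows in all. Searched on both strands, the kB consensus matched in 1 of the 14, TGANTCA (an AP-1 motif) in 4, all of Ikbkg or Map2k6, and TGACGTCA (a CREB motif) in 0. Over 32851 mouse promoter windows of the same length the shares were 8.46%, 7.81% and 1.79%. No entry was found for Tab1, Ikbkb or Nfkbiz, and the Map3k8 promoter is neither among the 14 windows nor shown. Of the genes most like Map3k8, Cxcl1 also held kB matches and Usp36 held none.

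Map3k7, which encodes TAK1, was covered by 6 tested probe sets, none of them called after IL-1b in either genotype. The smallest adjusted p against baseline was that of 1447801_x_at in WT cells at 1 h (-0.86 ± 0.26, limma adjusted p = 0.0582). The representative, 1419988_at, had signals of 909.6 and 799 without stimulation, 829.4 and 796.4 at 1 h, and 784.4 and 753.1 at 4 h in IRAK4-KD cells. In WT cells it had 685.2 and 603.6 without stimulation, 599.1 and 770.8 at 1 h, and 693 and 756.5 at 4 h. Without stimulation both IRAK4-KD arrays lay above both WT arrays, by 0.40 ± 0.12 on the log2 scale (limma adjusted p = 0.0423). The call was lost in 8 of 12 fits without 1 array, with adjusted p up to 0.276, and in 4 other alternatives. At 1 h the difference was 0.26 ± 0.12 (limma adjusted p = 0.229), and at 4 h, where the arrays overlapped, it was 0.09 ± 0.12 (limma adjusted p = 0.717).

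A further Map3k7 probe set, 1455441_at, had signals of 308.4 and 375.6 without stimulation, 405.2 and 362.4 at 1 h, and 279.7 and 286.1 at 4 h in IRAK4-KD cells. In WT cells the signals were 270.8 and 288.2, 263.2 and 288.2, and 225.4 and 255.2 at these times. The IRAK4-KD arrays were above the WT arrays at each time, and the difference at 1 h was called (0.46 ± 0.13, limma adjusted p = 0.0335). Leaving out any of the 4 arrays of that comparison ended the call, with adjusted p from 0.0719 to 0.243, as did median centring (0.115) and a fit with no variance trend (0.0901). All 6 Map3k7 probe sets had a positive IRAK4-KD minus WT difference at 1 h, between 0.02 and 0.46, and at 4 h, between 0.06 and 0.37. Without stimulation 3 of the 6 were positive, from -0.46 to 0.40. The 6 probe sets measure 1 gene on the same arrays and are not independent.

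Tab1 and Tab2 encode the binding partners of TAK1. Both Tab1 probe sets stayed between 1.5 and 20.4 on all 12 arrays, under the filter, so Tab1 had no test. The representative of Tab2, 1423462_at, had signals of 1360.2 and 1412 without stimulation, 1284.9 and 1220.2 at 1 h, and 1261.4 and 1254.8 at 4 h in IRAK4-KD cells, and 1417.6 and 1280.9, 1259.5 and 1188.2, and 1536.8 and 1395.6 in WT cells. It was not called in any of the 11 comparisons. Between 4 h and 1 h in WT cells, where all arrays separated, the difference was 0.26 ± 0.09 (limma adjusted p = 0.0664). With a filter at 2 times the median its limma adjusted p was 0.0499. The highest was 0.389 among the 10 alternatives other than leaving out 1 array. The difference ran from 0.19 to 0.33 over the 12 fits without 1 array, and not all of these fits left it uncalled. The other Tab2 probe set, 1451003_at, had a difference of 0.42 ± 0.17 in WT cells at 4 h (limma adjusted p = 0.148). It ran from 0.11 to 0.74 over the 12 fits without 1 array, with 0.74 without WT unstimulated replicate 1, a fit that called it.

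**Figure D3:**
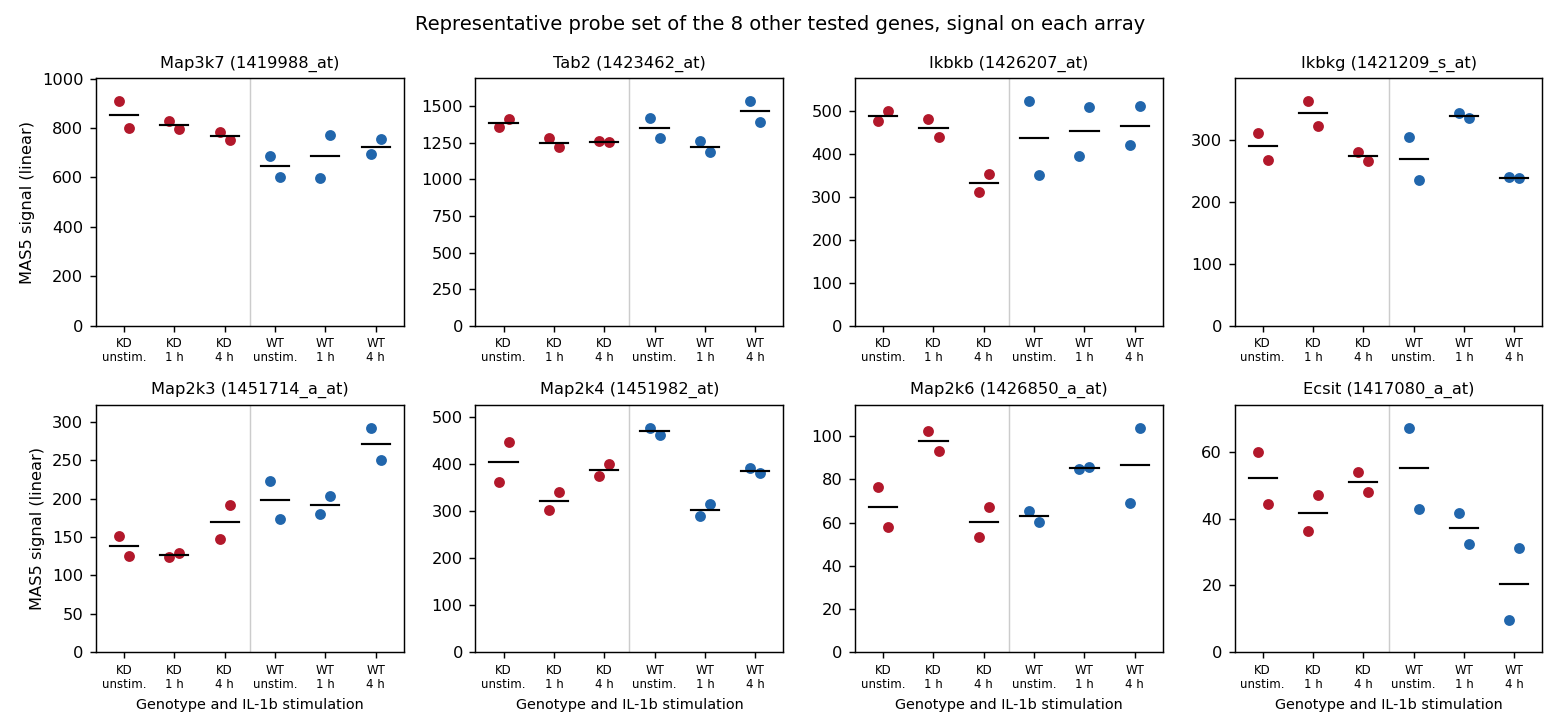
MAS5 signal (linear axes from 0) of the representative probe sets of Map3k7, Tab2, Ikbkb, Ikbkg, Map2k3, Map2k4, Map2k6 and Ecsit on each array, IRAK4-KD cells on the left and WT cells on the right of each panel, unstimulated, at 1 h and at 4 h; points are arrays and bars are group means. Map2k4 in WT cells had 289.4 and 315.4 at 1 h against 477.9 and 463 without stimulation, and Ecsit in WT cells had 9.8 and 31.1 at 4 h against 67.2 and 42.7.

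Ikbkb, which encodes the kinase IKKbeta, had signals for its representative 1426207_at of 477 and 500.2 without stimulation, 482.1 and 439.8 at 1 h, and 312.1 and 354.1 at 4 h in IRAK4-KD cells. In WT cells they were 523.7 and 351.3, 395.2 and 510.3, and 421.1 and 511.3. The IRAK4-KD arrays at 4 h were below every other IRAK4-KD array and below both WT arrays at 4 h, whereas the WT arrays overlapped across times. The difference at 4 h was -0.54 ± 0.17 against unstimulated IRAK4-KD cells (limma adjusted p = 0.196) and -0.47 ± 0.17 against WT cells (limma adjusted p = 0.0649), so neither was called. The response difference at 4 h was -0.66 ± 0.24 (limma adjusted p = 0.206), so a difference between the genotypes' responses was not called. It ran from -0.94 to -0.37 over the 12 fits without 1 array, and not all of these fits left it uncalled. For the comparison with WT at 4 h, limma's adjusted p was 0.0234 when only the groups compared were fitted. The highest was 0.199 among the 10 alternatives other than leaving out 1 array. The difference ran from -0.61 to -0.33 over the 12 fits without 1 array, and not all of these fits left it uncalled. Against unstimulated IRAK4-KD cells, limma's adjusted p was 0.0456 when only the groups compared were fitted. It was up to 0.471 in the 10 alternatives other than leaving out 1 array. The other tested probe sets, 1426333_a_at and 1445141_at, had signals of 1.8 to 37.9 and 15.9 to 54.3, reached the filter on 3 and 8 of the 12 arrays, and were not called in any comparison.

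Ikbkg encodes NEMO, the ubiquitin-binding scaffold of the IkB kinase complex, and 3 of its 5 tested probe sets were lower at 4 h than at 1 h in WT cells. The representative, 1421209_s_at, had signals of 311 and 267.8 without stimulation, 362.4 and 322.7 at 1 h, and 279.9 and 265.8 at 4 h in IRAK4-KD cells. In WT cells it had 303.5 and 234.6, 342.4 and 334.8, and 239.4 and 238.1. In both genotypes the arrays at 1 h were above those at 4 h. In WT cells 4 h was lower than 1 h by a log2 difference of -0.49 ± 0.14 (limma adjusted p = 0.0255), and in IRAK4-KD cells the difference was -0.32 ± 0.14 (limma adjusted p = 0.268).

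Probe set 1435646_at of Ikbkg had signals of 269 and 245.5, 312.4 and 317.5, and 292 and 271.3 at baseline, 1 h and 4 h in IRAK4-KD cells, and 308.5 and 282.9, 299.3 and 305.6, and 208.4 and 228.2 in WT cells. The WT arrays at 4 h were the lowest of the 12. In WT cells its 4 h signal differed from 1 h by -0.46 ± 0.13 (limma adjusted p = 0.02) and from baseline by -0.42 ± 0.13 (limma adjusted p = 0.0479). The call against baseline was lost in all 12 fits that left out 1 array, with adjusted p from 0.0501 to 0.211, and in 6 other alternatives. In IRAK4-KD cells 4 h differed from 1 h by -0.16 ± 0.13 (limma adjusted p = 0.601), and the response difference at 4 h was 0.55 ± 0.18 (limma adjusted p = 0.146). Side by side at 4 h, both IRAK4-KD arrays were above both WT arrays, by 0.36 ± 0.13 (limma adjusted p = 0.0621). With a filter at 2 times the median the limma adjusted p of this difference was 0.0437. The highest was 0.187 among the alternatives other than leaving out 1 array. It ran from 0.29 to 0.42 over the 12 fits without 1 array, and not all of these fits left it uncalled.

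Probe set 1454690_at of Ikbkg had signals of 221.3 and 213.9, 254.7 and 245.2, and 220.4 and 199.8 in IRAK4-KD cells, and 223.5 and 205.7, 233.1 and 237.9, and 166.1 and 171.2 in WT cells. Its WT arrays at 4 h were again the lowest of the 12. The WT difference between 4 h and 1 h was -0.46 ± 0.13 (limma adjusted p = 0.0244). Leaving out either WT array at 1 h or replicate 1 at 4 h ended the 4 h against 1 h call of all 3 probe sets, and leaving out replicate 2 at 4 h ended that of 1421209_s_at and 1454690_at. Adjusted p then lay between 0.083 and 0.126. Quantile normalization also ended the call of 1421209_s_at (0.0528) and of 1454690_at (0.0531), and a fit with no variance trend that of 1421209_s_at (0.0757). The remaining tested probe sets, 1435647_at (188.9 to 348.4) and 1421208_at (27.1 to 68.1), were not called in any comparison. Over the 5 the difference between 4 h and 1 h in WT cells ran from -0.49 to 0.16, with 4 below 0. Their response differences at 4 h were all positive, from 0.08 to 0.63, and none was called.

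Map2k3 and Map2k6 encode MKK3 and MKK6, the kinases of p38. The Map2k3 representative, 1451714_a_at, had signals of 151.6 and 125.6 without stimulation, 124 and 128.9 at 1 h, and 147.2 and 191.2 at 4 h in IRAK4-KD cells. In WT cells it had 222.7 and 173.8, 179.7 and 203, and 292.5 and 250.5. At each time both IRAK4-KD arrays were below both WT arrays. The IRAK4-KD minus WT difference was -0.49 ± 0.17 without stimulation (limma adjusted p = 0.0831), -0.57 ± 0.17 at 1 h (limma adjusted p = 0.0441) and -0.66 ± 0.17 at 4 h (limma adjusted p = 0.0123).

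The other Map2k3 probe set, 1425456_a_at, had signals of 36.6 and 33.9, 62.6 and 40.8, and 67.1 and 27.8 in IRAK4-KD cells, and 55.7 and 69.9, 62.9 and 94.2, and 97.8 and 94.9 in WT cells. Its IRAK4-KD arrays were also below the WT arrays at each time. The difference was called at 4 h (-1.01 ± 0.31, limma adjusted p = 0.0301) and was -0.70 ± 0.31 without stimulation (limma adjusted p = 0.164) and -0.54 ± 0.31 at 1 h (limma adjusted p = 0.331). At 4 h the call of 1451714_a_at was lost without WT 4 h replicate 1 (0.115) or IRAK4-KD 4 h replicate 1 (0.165), and that of 1425456_a_at without either WT 4 h array (0.12 and 0.105) or IRAK4-KD 4 h replicate 2 (0.407, with a difference of -0.47). With no filter (0.0719) or no variance trend (0.0975) 1425456_a_at was not called at 4 h either. The call at 1 h was lost in 6 of 12 fits without 1 array, with adjusted p from 0.0504 to 0.243, and in 3 other alternatives. The response differences of the 2 probe sets ran from -0.30 to 0.17 and were not called.

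Against unstimulated cells Map2k3 was called at neither time in either genotype. In WT cells at 4 h both probe sets were above baseline on all arrays, by 0.44 ± 0.17 for 1451714_a_at (limma adjusted p = 0.138) and 0.57 ± 0.31 for 1425456_a_at (limma adjusted p = 0.302). The WT difference of 1451714_a_at between 4 h and 1 h was 0.49 ± 0.17 (limma adjusted p = 0.0699). Fitting only the groups compared gave a limma adjusted p of 0.0386. The highest was 0.156 among the 10 alternatives other than leaving out 1 array. The difference ran from 0.38 to 0.59 over the 12 fits without 1 array, and not all of these fits left it uncalled. Map2k6 (1426850_a_at) had signals of 76.6 and 58, 102.6 and 93, and 53.3 and 67.1 at baseline, 1 h and 4 h in IRAK4-KD cells, and 65.6 and 60.4, 84.9 and 85.8, and 69.2 and 104 in WT cells. At 1 h both genotypes had both arrays above baseline, by 0.50 ± 0.22 in IRAK4-KD cells (limma adjusted p = 0.28) and 0.40 ± 0.22 in WT cells (limma adjusted p = 0.334), and Map2k6 was not called in any comparison.

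**Figure D4:**
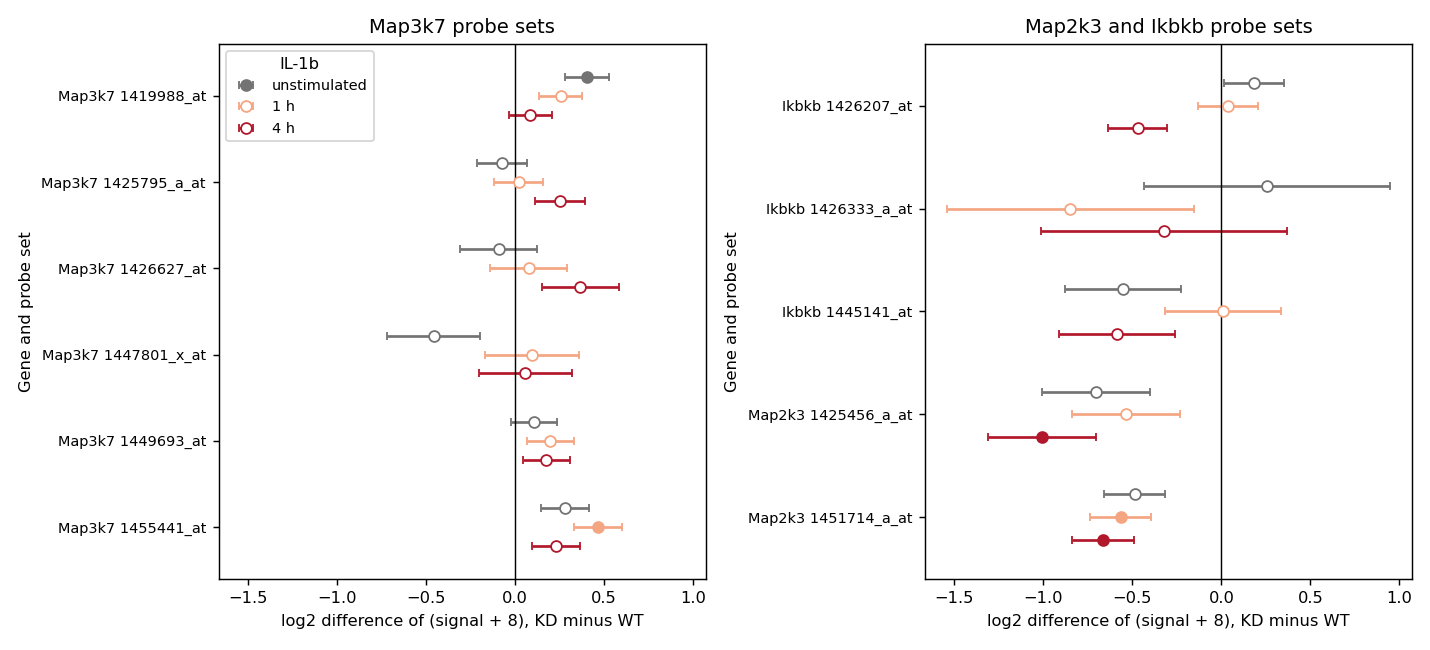
IRAK4-KD minus WT difference on the log2(signal + 8) scale (points, with SE bars) of the 6 Map3k7, 3 Ikbkb and 2 Map2k3 tested probe sets without stimulation, at 1 h and at 4 h; filled points were called by limma. The Map2k3 points lie between -1.01 and -0.49 at all 3 times, and the Map3k7 points lie above 0 at 1 h and 4 h.

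Map2k4 encodes MKK4, which acts on JNK and p38, and its transcript fell after 1 h of IL-1b in WT cells. The representative, 1451982_at, had signals of 362.6 and 447.3 without stimulation, 303.6 and 340.7 at 1 h, and 375.7 and 400.7 at 4 h in IRAK4-KD cells. In WT cells it had 477.9 and 463, 289.4 and 315.4, and 392.4 and 380.6. In both genotypes the arrays at 1 h were below those at baseline and at 4 h. The difference at 1 h was -0.32 ± 0.13 in IRAK4-KD cells (limma adjusted p = 0.225) and -0.63 ± 0.13 in WT cells (limma adjusted p = 0.00548), and the response difference was 0.31 ± 0.18 (limma adjusted p = 0.703).

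The WT call at 1 h was lost without WT 1 h replicate 1 (-0.56, adjusted p = 0.0637) and with median centring (-0.46, adjusted p = 0.0566), a scaling that raised the median of all tested probe sets in that comparison by 0.16. The other Map2k4 probe set, 1426233_at, had signals of 162.3 to 319.1. At 1 h its difference was -0.29 ± 0.19 in IRAK4-KD cells (limma adjusted p = 0.501) and -0.52 ± 0.19 in WT cells (limma adjusted p = 0.122), with the arrays at 1 h below baseline in both genotypes. At 4 h in WT cells the 2 probe sets differed from baseline by -0.28 ± 0.13 for 1451982_at and -0.49 ± 0.19 for 1426233_at (limma adjusted p = 0.211 and 0.131).

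Ecsit (1417080_a_at), the TRAF6 adaptor that also serves complex I assembly, fell after 4 h of IL-1b in WT cells. Its signal was 59.9 and 44.4 without stimulation, 36.2 and 47.1 at 1 h, and 53.9 and 48 at 4 h in IRAK4-KD cells. In WT cells it was 67.2 and 42.7, 41.6 and 32.5, and 9.8 and 31.1. The WT array with 9.8 was the only one of the 12 under the filter, and the WT arrays at 4 h were below baseline by a log2 difference of -1.23 ± 0.34 (limma adjusted p = 0.0337). At 4 h IRAK4-KD cells were 1.16 ± 0.34 above WT cells (limma adjusted p = 0.025). In IRAK4-KD cells the difference at 4 h was -0.02 ± 0.34 (limma adjusted p = 0.992), and the response difference was 1.21 ± 0.48 (limma adjusted p = 0.252), so a difference between the genotypes' responses was not called.

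Without WT 4 h replicate 1, the array with 9.8, the WT change was -0.66 (adjusted p = 0.292) and the genotype difference 0.59 (adjusted p = 0.296). The WT call was also lost without WT unstimulated replicate 1 (-0.94, adjusted p = 0.212), and the genotype call without either IRAK4-KD 4 h array (0.137 and 0.0879). Each of the 2 calls was also lost in 3 of the other alternatives. Of 8 other genes of complex I assembly, all tested, 2 rose in WT cells at 1 h, where 7.16% of all genes were called. These were Ndufaf2, by 0.55 ± 0.13 (limma adjusted p = 0.0147), and Timmdc1, by 0.50 ± 0.13 (limma adjusted p = 0.0267). Timmdc1 also rose in IRAK4-KD cells at 1 h, by 0.76 ± 0.13 (limma adjusted p = 0.00451). At 4 h 0 of the 8 were called against baseline in either genotype, where 0.53% of all genes were called in IRAK4-KD and 10.1% in WT cells. An unadjusted limma p under 0.05 was reached by 0 in IRAK4-KD cells and 2 in WT cells. Between IRAK4-KD and WT cells at 4 h, Tmem126b was higher (1.01 ± 0.20 on the log2 scale) and Acad9 lower (-0.62 ± 0.18) (limma adjusted p = 0.00182 and 0.0242). In that comparison 21.1% of all genes were called, so the counts of these 8 genes are given as a description.

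The other genes of the cascade were taken from lists of TAK1 partners, IkB kinase relatives, further MAP kinases of each tier, their scaffolds and substrates, and complex I assembly, 66 genes in all. Of these 52 were tested, each by its brightest probe set, 8 were under the filter and 6 were not analysed here. After 1 h, 1 rose and 0 fell in IRAK4-KD cells, and 2 rose and 0 fell in WT cells, all named above (2.82% and 7.16% of all genes were called). After 4 h, 0 were called in IRAK4-KD cells (0.53% of all genes, and 8 of the 52 at an unadjusted p under 0.05), and 3 rose and 2 fell in WT cells (10.1% of all genes).

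The 3 that rose in WT cells at 4 h were Tnip1, whose product binds A20 and NEMO, by 1.01 ± 0.18, Map3k5, which encodes the stress kinase ASK1, by 0.85 ± 0.10, and Tank, a partner of the IkB kinase relatives TBK1 and IKKepsilon, by 0.82 ± 0.12. Their adjusted p by limma were 0.00131, 3.03e-05 and 0.00035. The 2 that fell were Mknk2, which encodes the MAP kinase substrate MNK2 (-0.74 ± 0.13), and Elk1, which encodes a transcription factor phosphorylated by ERK (-0.38 ± 0.11). At 4 h in IRAK4-KD against WT cells, Tnip1 (-0.88 ± 0.18) and Tank (-0.39 ± 0.12) were lower, and Mknk2 (0.90 ± 0.13) and Elk1 (0.57 ± 0.11) were higher. These genes were picked by their change on the same WT arrays at 4 h, so an opposite genotype difference is partly built in. Their response differences at 4 h were not called.

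Between the genotypes, 2 of the 52 were higher and 2 lower in IRAK4-KD cells without stimulation (13% of all genes were called), 4 higher and 0 lower at 1 h (12.5%), and 6 higher and 3 lower at 4 h (21.1%). Map3k5 was higher in IRAK4-KD cells without stimulation (1.19 ± 0.10) and at 1 h (0.91 ± 0.10). Map3k1, which encodes MEKK1, was higher at 1 h (0.84 ± 0.16) and 4 h (0.60 ± 0.16), as was Mapk8ip3, a JNK scaffold (1.12 ± 0.23 and 1.33 ± 0.23). The response at 4 h differed between the genotypes in 1 of the 52, Map3k5, with -1.14 ± 0.15 (limma adjusted p = 0.00027, where 2.55% of all genes were called), and at 1 h in 0 (0.458%, with 3 at an unadjusted p under 0.05). Between 1 h and 4 h, 0 rose and 2 fell in IRAK4-KD cells (3.31% of all genes) and 5 rose and 4 fell in WT cells (17.5%).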

How the data were processed

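Total RNA of 12 fibroblast samples was purified on RNeasy columns, amplified with the NuGEN Ovation method and read on 1-colour Affymetrix Mouse Genome 430 2.0 arrays, per the labels' protocols. The deposited values are MAS5 signal intensities on a linear scale, per the submitters' processing notes; the version is not given in the sources used here, and no detection calls were used. The number of arrays limits the precision.

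Probe sets were named from the platform annotation, single symbols only. Values were transformed to log2(signal + 8) and fitted in R 4.3.3 with limma 3.58.1 (6 group means, 6 residual degrees of freedom, two-sided moderated tests with a variance trend). A probe set entered if it reached 25.5 on at least 2 arrays, and p-values were adjusted over all 27086 in each of 11 comparisons. A gene's representative is its tested probe set with the highest mean. Every member is accounted for, with array values for representatives and for called probe sets; list genes are named by size among the called, at most 4 of a list per comparison. The members and lists were chosen with earlier results of these data known.

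Alternatives were 2 other pseudocounts, no filter or a stricter one, quantile normalization, median centring, 1 probe set per gene, no variance trend, only the groups compared, a replicate block and leaving out each array. Tested on simulated data for the WT 1 h comparison, 40% of changes of 1 and 80% of changes of 2 on the log2 scale were recovered over 27086 probe sets. Replicate numbers were checked over 15 pairs of groups: deviations correlated at -0.03 to 0.07, so the numbers were not treated as pairs. Python 3.11.15 and matplotlib 3.10.9 drew the figures.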

Additional observations from a re-analysis of the deposited data

Results flagged for a closer look

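The response of Map3k8 (1419208_at) to 1 h of IL-1b differed between the genotypes by limma's test of the difference itself: -2.83 ± 0.44 on the log2 scale, from 0.09 in IRAK4-KD cells and 2.92 in WT cells (limma adjusted p = 0.00346). Both IRAK4-KD arrays at 1 h were below both WT arrays, by a log2 difference of -1.85 ± 0.31. The unstimulated arrays were all under the filter, with 17.7 and 21.8 in IRAK4-KD and 9.2 and 3.4 in WT cells. Their log2 difference, 0.98 ± 0.31 higher in IRAK4-KD cells, enters the response difference. Without WT 1 h replicate 2 the response difference was -2.49 and was not called. With a pseudocount of 32 the difference was -1.72, and with 1 it was -3.77.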

How the results depend on the processing

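The 60 member differences followed here, 17 of them called, were recomputed in 1301 alternative values. Of these values 1177 kept their direction and their side of the threshold, 95 lost a call and 22 gained one. All 95 losses fell on the 17 called differences. Among those, only Map3k8 in WT cells at 1 h and 4 h, and in IRAK4-KD against WT cells at 1 h, kept its call in every alternative. The other 7 values changed sign, all of differences that were not called. Those 7 each left out 1 array: Ecsit at 4 h in IRAK4-KD cells became 0.17 without unstimulated replicate 1 and 0.05 without 4 h replicate 2 (-0.21 to 0.17 over the 12 arrays left out), and Map2k4 (1451982_at) there 0.10 without unstimulated replicate 2 (-0.20 to 0.10). Map3k8 at 1 h in IRAK4-KD cells became -0.02 without unstimulated replicate 1 and -0.12 without 1 h replicate 1 (-0.12 to 0.30), and between 4 h and 1 h in WT cells 0.14 without 1 h replicate 2 (-0.55 to 0.14). The response difference of Map2k3 (1451714_a_at) at 4 h became 0.0034 without IRAK4-KD 4 h replicate 1 (-0.36 to 0.0034). The causes were not tested.

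Counts of called member probe sets moved as follows. Fitting only the groups compared gave 2 for IRAK4-KD 4 h against 1 h, 1 for IRAK4-KD at 4 h, 0 for IRAK4-KD against WT without stimulation and 1 for WT at 4 h. No variance trend gave 1, 1 and 0 for IRAK4-KD against WT at 1 h, at 4 h and without stimulation, and 1 for WT at 4 h; no filter gave 1 and 0 for IRAK4-KD against WT at 4 h and without stimulation, and 1 for WT at 4 h. A pseudocount of 32 gave 1 and the replicate block 0 for IRAK4-KD against WT without stimulation, and the block moved no other count by over 1.5 times. Median centring gave 1 for WT at 1 h, and quantile normalization or 1 probe set per gene gave 1 for WT 4 h against 1 h. Leaving out 1 array gave 0 to 1 for IRAK4-KD at 4 h and for 4 h against 1 h, 1 to 2 for WT at 1 h and at 4 h, and 0 to 5 for WT 4 h against 1 h. For IRAK4-KD against WT it gave 0 to 3 without stimulation, 1 to 3 at 1 h and 0 to 5 at 4 h (5 without either unstimulated WT array, 0 without WT 4 h replicate 1), and for the response difference 0 to 1 at 1 h and 0 to 3 at 4 h. Median centring moved the median of all tested probe sets by 0.16 in WT cells at 1 h and by -0.16 and -0.15 in the response differences at 1 h and 4 h. With no detection calls, the distance of signals under 25.5 from background is not known, which limits Tab1 and the baseline of Map3k8.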
